A study of Mus musculus with 4 samples.

Results

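The genes described here are Eif4a1, Eif4b, Eif4e and Eif4h, which encode factors that act with the mRNA cap at the start of translation. They were taken by name from a ribosome profiling table, with earlier results of these data known, and all 4 were among its 4878 listed genes. Ribosome profiling sequences the mRNA fragments that ribosomes shield from RNase, called footprints, and the table counts them on the coding sequence and, in columns of their own, on the 5' UTR, the untranslated leader ahead of the main start codon. The cells were mouse embryonic fibroblasts at passages 5 to 8. A group of 2 libraries came from cells transfected with the siRNA labelled Si-Negative control, and a group of 2 libraries from cells transfected with Si-eIF1A (X+18), an siRNA against the initiation factor eIF1A. All cells received siRNA with the lipid Lipofectamine RNAimax. Nothing in the labels says that libraries of a group came from separate cultures, so each p-value speaks of the variation among these 4 libraries alone, and that variation may be technical.

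Most mRNAs are recruited to the ribosome through their 5' cap. eIF4E binds the cap itself, the scaffold eIF4G holds eIF4E and the RNA helicase eIF4A together as the complex eIF4F, and eIF4B and eIF4H are related RNA-binding cofactors that raise the activity of eIF4A. The recruited small ribosomal subunit then scans the leader for a start codon, a step in which eIF1A takes part. Of the 4 factors, only eIF4E contacts the cap directly. The comparison asks how ribosome occupancy of their own mRNAs differed when eIF1A was targeted. No RNA-seq was used here, so more mRNA and more ribosomes per mRNA cannot be told apart in a footprint level.

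Eif4e lies on chromosome 3 (138526191 to 138559696, plus strand, GRCm38.p6, the mm10 build), Eif4a1 on chromosome 11 (69666936 to 69672423, minus strand), Eif4b on chromosome 15 (102073773 to 102097173, plus strand) and Eif4h on chromosome 5 (134619872 to 134639409, minus strand). The gene table places 3 snoRNA genes inside the Eif4a1 interval and a microRNA gene, Mir1956, inside that of Eif4e. RefSeq promoter windows of 300 bases, 250 before and 50 from the annotated start on, were available for all 4 genes, with 2 windows for Eif4e. The E-box CACGTG, a palindrome known as a site for MYC and USF proteins, was present in the windows of Eif4e, Eif4a1 and Eif4h and was not found in that of Eif4b. This motif was chosen after the sequences were read. It was present in 7.15% of all 32851 windows and, among 3831 listed genes with a window under their own symbol, in the windows of 13.5%. The matches are shown with 12 bases on each side to set the motif in 3 of the 4 genes side by side. Each is on the gene's strand of GRCm38.p6, and the capitals mark the motif.

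Eif4e, chr3:138527028-138527057, plus strand: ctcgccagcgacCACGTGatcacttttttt
Eif4e, chr3:138527192-138527221, plus strand: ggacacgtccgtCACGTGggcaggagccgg
Eif4a1, chr11:69672595-69672624, minus strand: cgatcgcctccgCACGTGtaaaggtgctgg
Eif4h, chr5:134639488-134639517, minus strand: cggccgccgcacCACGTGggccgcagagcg

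Both Eif4e matches belonged to the downstream of its 2 annotated starts. A match is a description of these letters and not evidence of binding. None of the 5 annotated starts began with a run of more than 1 pyrimidine, the kind of start that defines terminal oligopyrimidine mRNAs. By annotation, Eif4b began with C followed by G, Eif4e with G at both starts, Eif4a1 with G and Eif4h with A. The starts used in these cells were not mapped. Whether any of these mRNAs is a terminal oligopyrimidine mRNA was therefore not tested.

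The listed genes held 547916 and 617663 reads in the controls and 280649 and 458191 reads in the knockdown libraries. Coding and 5' UTR values were tested with limma across all genes (linear model on log2 of the normalized reads plus 1, Benjamini-Hochberg adjustment, threshold 0.05). In coding reads, 1352 of 4619 tested genes passed (29.3%), with 488 higher in the knockdown libraries (10.6%) and 864 lower (18.7%), and the median over all tested genes was -0.16 on the log2 scale. That balance depends on the scaling: 695 were higher and 694 lower with quantile normalization (median 0), 786 and 780 with TMM factors (trimmed mean of M-values) from coding reads alone (median 0), and 429 and 1005 with TMM factors over both regions (median -0.25). Of 14 fibroblast markers, 5 were listed (Col5a1, Fn1, Vim, S100a4 and P4hb), and their summed normalized coding level was 5936 and 7704 in the control libraries and 4082 and 3413 in the knockdown libraries. The other 9, Col1a1 and Pdgfra among them, were not analysed here. Of 21 markers of epithelial, endothelial, blood, muscle and neuronal cells, 2 were listed, Dsp and Map2. Their values were 109 and 146 (Dsp) and 65.9 and 55.3 (Map2) in the control libraries, against 82.4 and 71.8 (Dsp) and 15.3 and 6.38 (Map2) in the knockdown libraries. The part of these shifts in the results was not tested.

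All 4 factors carried more coding footprints in both knockdown libraries than in either control. Eif4a1 and Eif4e rose past the test, about 2-fold, while Eif4b and Eif4h, with smaller differences, did not pass. Across all tested genes, 26.0% had both knockdown libraries above both controls, and 10.6% were called higher. Each factor was highest in knockdown replicate 1. For 1 gene on its own, exact permutation of 2 against 2 libraries (two-sided) reaches no p smaller than 0.33, so no such test was run.

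**Figure D1:**
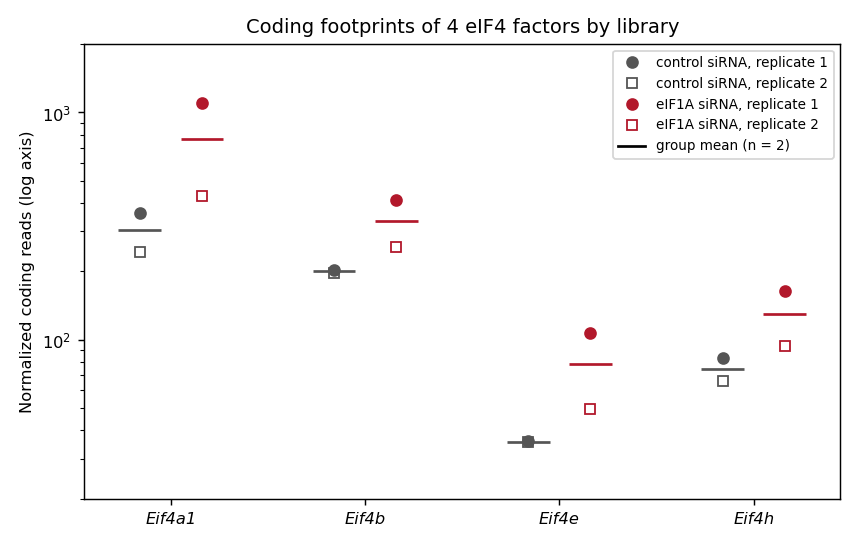
Normalized coding reads (log axis) of the 4 genes in each library, with circles for replicate 1, squares for replicate 2 and lines for group means of 2 libraries (grey, control siRNA; red, eIF1A siRNA). Every red symbol lies above both grey symbols of the same gene, and Eif4a1 ranges from 244 to 1095.

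Eif4e, the cap-binding protein itself, had 35.8 and 35.4 normalized coding reads in control replicates 1 and 2, from 50 and 41 reads. In knockdown replicates 1 and 2 it had 107 and 49.5, from 105 and 31 reads. The controls were nearly equal and the knockdown libraries lay apart, both above the controls. The group means were 35.6 ± 0.276 and 78.1 ± 40.5 (SD, n = 2), a rise of 1.01 ± 0.37 on the log2 scale (SE; limma, adjusted p = 0.049), or 2.01-fold with a 95% interval of 1.17 to 3.45. This call stood at the edge of the threshold and was lost in 8 of 16 alternative settings. Those 8 include the fits without 1 of the controls, where far fewer genes passed in all. A call lost in such a fit is therefore not particular to a gene. Without knockdown replicate 1 the log2 change was 0.46, and without control replicates 1 and 2 in turn it was 1.02 and 1.00.

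Eif4a1, the DEAD-box helicase that unwinds leaders, had 362 and 244 normalized coding reads in control replicates 1 and 2. It had 1095 and 431 in knockdown replicates 1 and 2. The lower knockdown library was 1.19 times the higher control, so the groups were separate by a narrow margin. The group means were 303 ± 83.5 and 763 ± 470 (SD, n = 2), a rise of 1.21 ± 0.38 on the log2 scale (SE; limma, adjusted p = 0.0258), or 2.31-fold with a 95% interval of 1.32 to 4.03. By log2 change, 8.36% of the tested genes lay above it. Its value rested on knockdown replicate 1: without that library the log2 change was 0.54 (limma adjusted p = 0.276), and without knockdown replicate 2 it was 1.88 (adjusted p = 2.6e-05). Without control replicates 1 and 2 in turn the log2 change was 1.49 and 0.92. Reads of Eif4a1 can be shared with its close paralog Eif4a2, which was not analysed here, and reads of Eif4e with its processed copies, since the sources used here do not state how reads with several matches were handled.

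Eif4b, the larger of the helicase cofactors, had 203 and 197 normalized coding reads in control replicates 1 and 2. Knockdown replicates 1 and 2 had 412 and 257. The groups did not overlap. The means were 200 ± 4.04 and 334 ± 110 (SD, n = 2), a log2 difference of 0.70 ± 0.30 (SE) that did not pass (limma adjusted p = 0.0918), with a 95% interval of 0.06 to 1.34.

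Eif4h, the smaller cofactor, had 83.1 and 65.7 normalized coding reads in control replicates 1 and 2. It had 165 and 94.2 in knockdown replicates 1 and 2. Its groups did not overlap either, and the lower knockdown library was 1.13 times the higher control. The means were 74.4 ± 12.3 and 129 ± 49.9 (SD, n = 2), a log2 difference of 0.75 ± 0.33 (SE, limma adjusted p = 0.0975), with a 95% interval of 0.05 to 1.44. Without knockdown replicate 2, Eif4b and Eif4h passed with log2 changes of 1.04 and 1.15 (limma adjusted p = 0.016 and 0.00468), and without knockdown replicate 1 they were at 0.36 and 0.35 (adjusted p = 0.459 and 0.457). They also passed with TMM factors from coding reads alone (0.87 and 0.91) and with quantile normalization (0.99 and 0.97).

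**Figure D2:**
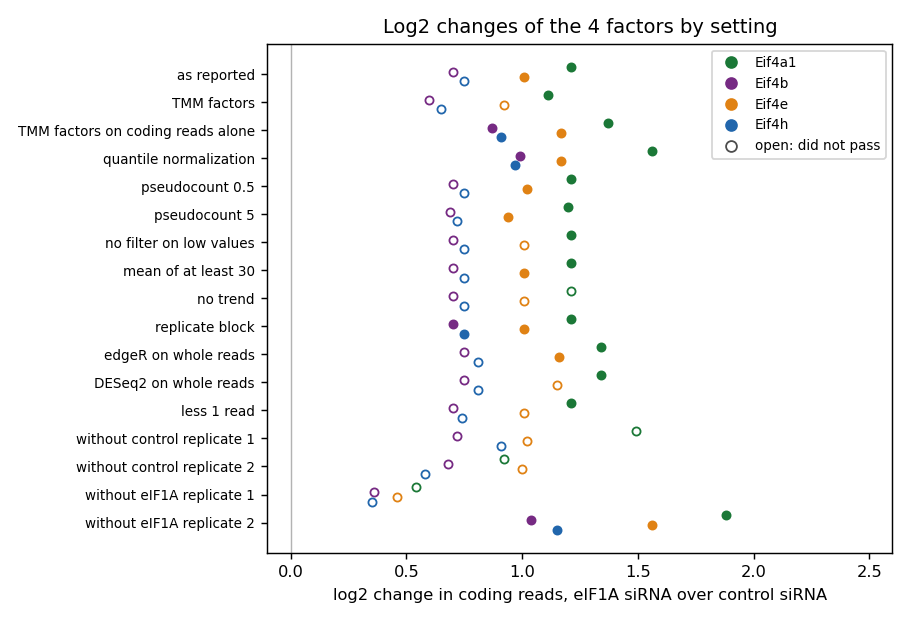
Log2 change in coding reads of each gene (x axis) under the reported setting and 16 alternatives (rows), with filled dots where the adjusted p was under 0.05 and open dots where it was not. Every dot lies above 0, and all 4 genes are lowest without eIF1A siRNA replicate 1, at 0.35 to 0.54.

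The spread within the knockdown group exceeded the counting error. Pooled by group, Eif4a1 had 787 control and 1347 knockdown coding reads, a ratio of 2.71 after scaling by the authors' factors with a 95% counting interval of 2.48 to 2.97 (exact binomial, counting error only, since reads without molecular identifiers are not independent molecules). For Eif4e, with 91 and 136 reads, the ratio was 2.37 (1.80 to 3.13). For Eif4b and Eif4h, with 511 and 566 and with 192 and 221 reads, it was 1.76 (1.56 to 1.98) and 1.83 (1.497 to 2.23). These intervals leave out the choice of scaling: by the libraries' total coding reads the ratios were 3.13, 2.74, 2.03 and 2.11 for Eif4a1, Eif4e, Eif4b and Eif4h. In the same order they were 2.70, 2.36, 1.75 and 1.82 by all listed reads. By total 5' UTR reads they were 1.38, 1.20, 0.890 and 0.925, so Eif4b and Eif4h were then below 1. Knockdown replicate 1 exceeded replicate 2 by 2.54 times in Eif4a1, 2.16 in Eif4e, 1.75 in Eif4h and 1.60 in Eif4b. Among 1858 genes that averaged at least 50 normalized coding reads, the median of this ratio was 1.17, and 90% of them lay below 1.94. Counting differences in either direction, the ratios of Eif4a1 and Eif4e were farther from 1 than those of 97.7% and 94.1% of these genes. Between the controls, replicate 1 was 1.48 times replicate 2 in Eif4a1, 1.27 in Eif4h, 1.03 in Eif4b and 1.01 in Eif4e. Among the same 1858 genes the median of the control ratio was 0.997, and 90% of them lay below 1.44. The limma SEs, intervals and p-values draw mostly on the spread of all tested genes (14.1 prior against 2 residual degrees of freedom). They therefore do not carry the full spread of Eif4a1 and Eif4e between their own libraries.

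Expressed as a share of each library's own coding reads, which does not use the authors' scaling, the 4 factors together took 17.5 and 13.3 of every 10000 coding reads in control replicates 1 and 2. They took 47.7 and 27.5 in knockdown replicates 1 and 2. Eif4a1 supplied the largest part of this, with 9.25 and 5.96 against 29.4 and 14.2. Eif4e moved from 0.916 and 0.867 to 2.86 and 1.63 of every 10000. In this measure too both knockdown libraries lay above both controls for each of the 4, as they did for 35.8% of all tested genes.

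Ratios between the factors within a library are free of scaling and show how evenly they moved. Eif4h stood at 41.0 and 33.3 reads per 100 coding reads of Eif4b in the controls and at 40.0 and 36.6 in the knockdown libraries, so the knockdown values lay inside the control range. Eif4e per 100 reads of Eif4a1 was 9.90 and 14.5 against 9.75 and 11.5, again with overlap. Eif4e per 100 reads of Eif4b was 17.7 and 18.0 in the controls against 25.9 and 19.3, and Eif4a1 per 100 reads of Eif4h was 435 and 371 against 665 and 458. Of the 6 pairs, these last 2 were those whose groups did not overlap. Among all pairs of tested genes, 68.2% had ratios whose groups did not overlap. They do not compare absolute levels, for which reads per length would be needed.

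**Figure D3:**
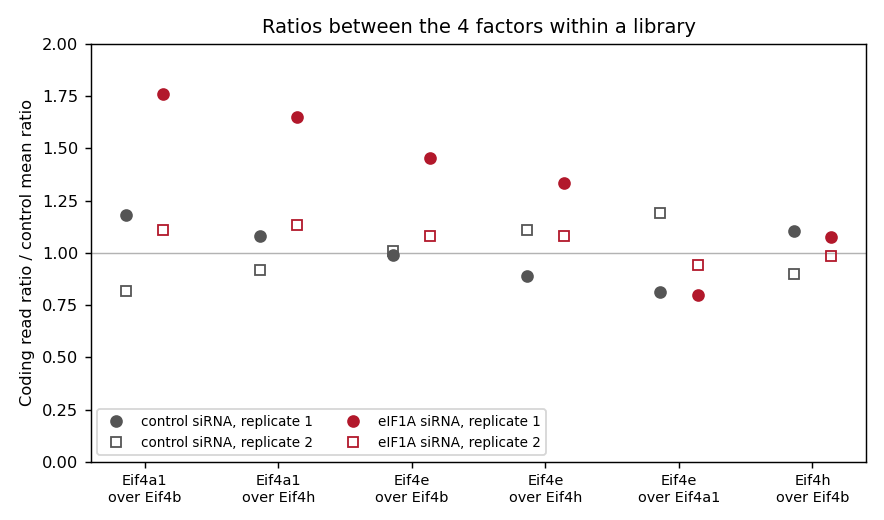
Coding read ratio of 6 pairs of genes in each library, divided by the mean ratio of the 2 controls (symbols as in the plot of coding reads by library). Eif4h over Eif4b stays close to 1 in all 4 libraries, and Eif4a1 over Eif4b reaches its highest value in eIF1A siRNA replicate 1.

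The leaders of these mRNAs carried almost no footprints in either group. Eif4a1, Eif4e and Eif4h were listed at 1 read in the 5' UTR in each of the 4 libraries, the lowest value that the table holds. The sources used here do not say how a gene with no read was entered, so that value may stand for 0 or 1. Their normalized 5' UTR values, 0.717 and 0.864 in the controls and 1.02 and 1.60 in the knockdown libraries, are the scaled value of 1 read and say nothing of a difference. In all, 859 of the 4878 listed genes (17.6%) were at 1 read in every library. Among the 74 genes with a mean coding level at or above that of Eif4a1 there were 7 such genes, Eif4a1 included.

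Eif4b had 2 and 1 leader reads in the controls and 4 and 6 in the knockdown libraries. After scaling by the authors' factors its ratio was 5.29, with a 95% counting interval of 1.36 to 29.9 from 3 and 10 reads, or 12.7 (1.70 to 563) if 1 read was added to every value. Scaled by the libraries' total coding reads it was 6.10 (1.57 to 34.5), and by their total 5' UTR reads 2.68 (0.690 to 15.2), an interval that includes 1. Its leader share was 0.702% and 0.437% of its reads in the controls, against 0.978% and 3.59% in knockdown replicates 1 and 2. The exact 95% Clopper-Pearson intervals of the last pair were 0.267% to 2.49% and 1.33% to 7.66%. Eif4a1, with 1 leader read against 270 to 1077 coding reads, had a share of 0.0928% to 0.369%, with an upper bound of at most 2.04% in any library. Eif4e and Eif4h had fewer coding reads, so 1 leader read bounds their shares less tightly. The upper bounds ran from 5.14% to 16.2% for Eif4e and from 3.37% to 8.94% for Eif4h. In the summed reads of all listed genes, the leader share was 11.6% and 13.7% in the controls and 19.95% and 32.4% in the knockdown libraries. That is a share of all reads and not that of a typical gene. None of the 4 genes reached the mean of 10 normalized 5' UTR reads needed for a test of the leader level or of the ratio of leader to coding reads, where 44.0% of 2101 and 20.5% of 1907 tested genes were called higher.

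**Figure D4:**
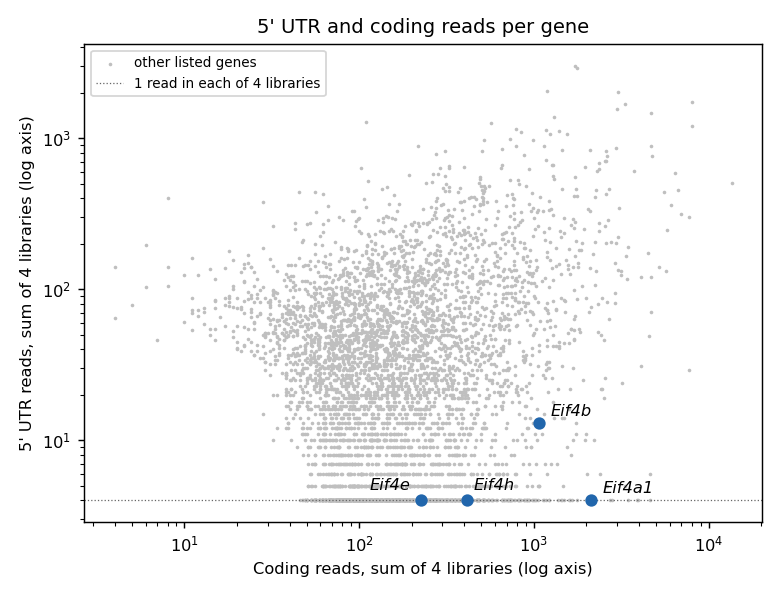
Reads on the 5' UTR against reads on the coding sequence, each summed over the 4 libraries (log axes), for all listed genes (grey) and the 4 factors (blue). Eif4a1, Eif4e and Eif4h lie on the dotted line of 1 leader read per library, and Eif4b lies at 13 leader reads for 1077 coding reads.

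The length of the leaders was not used here. Within the promoter windows, the first ATG after the annotated start came 29 bases downstream of the second Eif4e start and 46 bases downstream of the Eif4a1 start. The windows of Eif4b, Eif4h and the first Eif4e start held none in their 50 bases, as against 44.3% of all windows with an ATG there. Whether these ATGs are coding starts was not examined.

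The genes whose coding pattern over the 4 libraries lay closest to each factor were found by the Euclidean distance of log2 values centred on each gene's mean, among 1857 other genes that averaged at least 50. Eif4a1 was closest to Rpl3 (distance 0.0969), Eif3h (0.112) and Uqcrc2 (0.178), against a median distance of 1.81. Rpl3 had 349 and 254 normalized coding reads in the controls and 1048 and 426 in the knockdown libraries. Eif4e was closest to Atp5l (0.136), Ywhag (0.149) and Cd164 (0.158). Eif4b was closest to Nol11 (0.0566), Ubqln4 (0.0935) and Saraf (0.110), and Eif4h to Maea (0.0631), Kpna6 (0.0739) and Vat1 (0.0757). Among the factors themselves Eif4b and Eif4h were the nearest pair (0.230), with 24 genes closer to Eif4b than Eif4h was, and Eif4a1 and Eif4b the most distant (0.786).

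Among partners and regulators of the 4 factors, Pdcd4 fell, and Pabpc4 and Ncbp2 rose. On a list of 29 genes for the cap complex and its regulators, 15 were in the table and 14 were tested, the 4 factors included. Of the other 10, 2 rose, 1 fell and 7 did not pass, beside 10.6% higher and 18.7% lower of all tested genes. Their median log2 change was 0.12 beside -0.16 for all genes. Eif4e2, among those that did not pass, had 50.9 and 67.4 normalized coding reads in control replicates 1 and 2. In knockdown replicates 1 and 2 it had 60.0 and 62.25 (log2 0.06, limma adjusted p = 0.907). Eif4g1, the scaffold of eIF4F, had 353 and 538 normalized coding reads in control replicates 1 and 2. Its knockdown replicates 1 and 2 had 591 and 626. Its groups did not overlap, as was so for 66.1% of all tested genes. Its log2 difference of 0.48 ± 0.30 (SE) did not pass (limma adjusted p = 0.242).

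Pdcd4, an inhibitor that binds eIF4A and keeps it from eIF4G, changed in the opposite direction to Eif4a1. It had 80.3 and 48.4 normalized coding reads in control replicates 1 and 2, while knockdown replicates 1 and 2 had 8.14 and 19.2. The knockdown values were both below the controls, as was so for 40.1% of all tested genes. The gene fell by 2.22 on the log2 scale (SE 0.43, limma adjusted p = 0.00157). Without control replicates 1 and 2 in turn the log2 change was -1.86 and -2.58. Pabpc4, a poly(A)-binding protein, rose by 1.98 (adjusted p = 0.0136) from 7.88 and 3.46 to 25.4 and 22.3 normalized coding reads. Ncbp2, the cap-binding subunit of the nuclear cap-binding complex, rose by 1.29 (adjusted p = 0.0429) from 12.9 and 7.78 to 26.4 and 25.5. With control replicates 1 and 2 left out in turn, the log2 change was 2.48 and 1.48 for Pabpc4 and 1.62 and 0.96 for Ncbp2. Ncbp2 lost its call with TMM factors over both regions, with DESeq2 and with 1 read less per value. Pabpc1, the major cytoplasmic poly(A)-binding protein, was at 0.35 in coding reads (limma adjusted p = 0.39).

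The leader of Pabpc1, unlike those of the 4 factors, held enough reads for a test, so their changes cannot be compared. It had 26.5 and 47.5 normalized 5' UTR reads in the controls and 153 and 193 in the knockdown libraries, a log2 change of 2.24 (limma adjusted p = 2.22e-05). Without control replicate 1 it was 1.83. Relative to its coding reads the leader rose by 1.89 (limma adjusted p = 0.0423), a call lost in 7 of 16 alternatives. Among them was quantile normalization (0.60, adjusted p = 0.388). The log2 change of this ratio was 1.36 without control replicate 1, 2.43 without control replicate 2 and 1.52 without knockdown replicate 2. The 7 include these fits, which leave 1 library in a group. Without 1 of the controls no ratio of any gene was called, so the lost calls there are not particular to Pabpc1. Of 7 tested leaders on the cap complex list, 3 rose and 4 did not pass, a share near the 44.0% of all tested leaders that were called higher. The leader of Eif4g1 was among the 3 (log2 1.17, limma adjusted p = 0.0466), a call lost in 9 of 16 alternatives. It had 19.3 and 22.5 normalized 5' UTR reads in the controls and 22.4 and 102 in knockdown replicates 1 and 2.

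**Figure D5:**
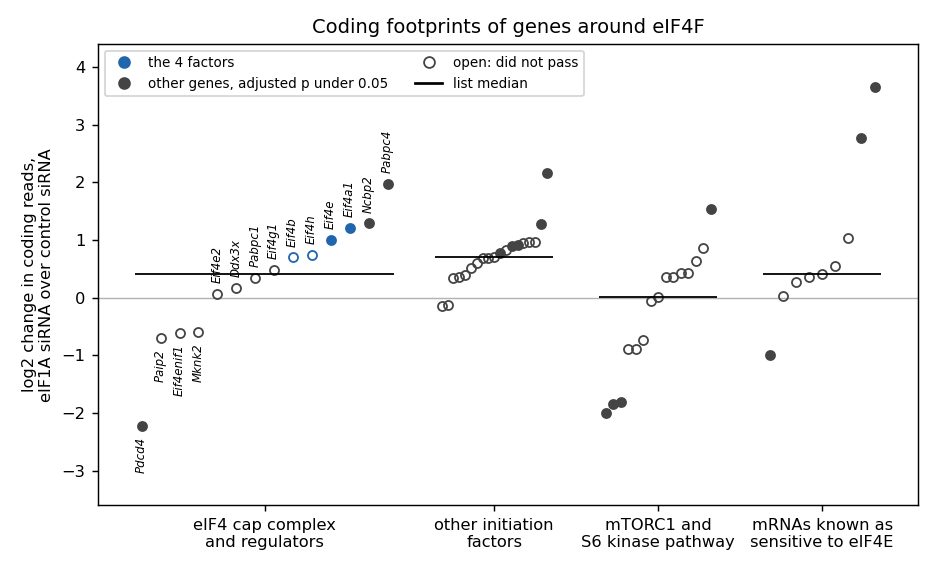
Log2 change in coding reads of the tested genes of 4 lists, ordered within each list, filled where the limma threshold was passed and blue for the 4 factors, and with the list medians as black lines. Pdcd4 is lowest on the first list at -2.22 and Pabpc4 is highest at 1.98.

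Among 19 tested initiation factors of other complexes, 5 rose, none fell and 14 did not pass, beside 10.6% higher and 18.7% lower of all tested genes. The median log2 change was 0.70 beside -0.16 for all genes. Eif1, a start codon fidelity factor, rose by 2.17, Eif3h by 1.28, Eif2s3x by 0.92, Eif5 by 0.91 and Eif3b by 0.77 (limma adjusted p from 0.000102 to 0.0471). Of these 5, Eif1 passed in all 16 alternatives. Eif3b lost its call in 8, Eif2s3x, a subunit of eIF2, in 7, Eif5 in 6 and Eif3h in 4. Without knockdown replicate 1, Eif2s3x was at 0.51 and Eif3h at 0.56 (adjusted p = 0.255 and 0.204), and without knockdown replicate 2 Eif3h was at 2.01 (adjusted p = 2.41e-07). Without control replicate 2, Eif5 was at 0.60. The counts of lost calls include the fits without 1 of the controls, where far fewer genes passed in all. Eif4a3, a helicase of the eIF4A family in the exon junction complex, had 90.3 and 58.8 normalized coding reads in the controls and 129 and 63.8 in the knockdown libraries. Its groups overlapped, and its log2 difference was 0.31 (adjusted p = 0.537). Of 10 tested leaders of the initiation factors of other complexes, 9 rose and 1 did not pass, beside 44.0% of all tested leaders called higher.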

How the data were processed

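The submitters' processing notes name cutadapt, Bowtie, TopHat2, HTSeq, DESeq2 and the mm10 build, without versions. The signal that the authors deposited is, per the file headers, normalized reads of each gene and region. In every library 100% of values were whole multiples of 1 read within 0.001 reads, so whole reads were recovered. The table lists part of the genes, and its totals are not the libraries' full depth.

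Values were tested as log2 (value + 1) with limma 3.58.1 in R 4.3.3 (empirical Bayes with a mean-variance trend) over genes with a mean of at least 10. Fold changes on this scale understate those of genes with few reads. edgeR 4.0.16 called 1517 genes for coding reads, and DESeq2 1.42.0 called 890. On simulated coding reads (4574 genes), limma recovered 33% of 2-fold and 92% of 4-fold changes with 3 false calls. The simulation gave all genes a common dispersion and changed a small part of them. It held no shift across all genes and no outlying replicate, so its false calls are no estimate for the real libraries. The alternatives were scaling, pseudocount, filter, trend, replicate block, count tests, 1 read less per value and each library left out. TMM factors from coding reads alone, and library totals as scaling of the pooled read ratios, were added after seeing the data.

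Members and lists were chosen with earlier results of these data known. Named from each list were its 4 called genes of smallest adjusted p, plus Eif4g1, Pabpc1 and Pdcd4 whatever their result (Eif4g2 and Eif4ebp1 were not analysed here). Eif3b, Eif4a3, Eif4e2 and the leaders of Pabpc1 and Eif4g1 were added after their values were seen. Promoter windows are those of RefSeq (GRCm38.p6), matched by symbol. The targeted genes Eif1ax and Eif1a were not analysed here, so the knockdown was not checked.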

Additional observations from a re-analysis of the deposited data

How the results depend on the processing

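The log2 changes of Eif4a1, Eif4b, Eif4e and Eif4h in coding reads stayed above 0 in all 16 alternatives. Scaling by total 5' UTR reads was not among the 16. By that scaling the pooled ratios were 1.38 for Eif4a1, 1.20 for Eif4e, 0.890 for Eif4b and 0.925 for Eif4h. With 1 library left out the log2 changes ranged from 0.54 to 1.88 for Eif4a1 and from 0.36 to 1.04 for Eif4b. They ranged from 0.46 to 1.56 for Eif4e and from 0.35 to 1.15 for Eif4h. Eif4a1 lost its call without a trend (1.21), and Eif4e with TMM factors over both regions (0.92), with DESeq2 (1.15), and without a filter, without a trend and with 1 read less per value (1.01 each). Eif4b and Eif4h passed with TMM factors from coding reads alone (0.87 and 0.91), quantile normalization (0.99 and 0.97) and the replicate block (0.70 and 0.75; adjusted p = 0.0168 and 0.0171). Why was not tested. The labels give same-numbered libraries a shared number and do not say whether they were paired. Their deviations from the group means correlated at 0.261 over 4619 genes, and the block raised the coding calls from 1352 to 1921. For Eif4a1 and Eif4e the block left the calls in place.

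Coding calls fell to 890 with DESeq2 and ranged from 11 to 1729 with 1 library left out (11 without control replicate 2, 967 at an unadjusted p under 0.05). Calls on 5' UTR reads were 983, fell to 415 with a mean of at least 30, where 749 genes were tested, and ranged from 189 to 1396 with 1 library left out. Calls on the ratio were 392, with 73 under quantile normalization, 175 with a mean of at least 30 (573 genes tested), 862 with the block and 0 to 1168 with 1 library left out (limma gave 0 without control replicates 1 and 2, with 121 and 194 at an unadjusted p under 0.05). Without a filter, the Eif4b leader passed (log2 1.78, limma adjusted p = 0.0328) on 13 reads in all, and the leaders at 1 read gave 0.36 (adjusted p = 0.301) from scaling alone. The leader values of the 4 genes rest on at most 6 reads in any library.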

Other observations

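The counts on 2 further lists stand beside those over all tested genes, of which 10.6% were called higher and 18.7% lower. Of 15 tested genes of the mTORC1 and S6 kinase pathway, which controls cap binding through the 4E-binding proteins, 1 rose, 3 fell and 11 did not pass, with a median log2 change of 0.01 in coding reads beside -0.16 for all genes. Rps6ka1, a ribosomal S6 kinase of the MAPK pathway, had 55.9 and 59.6 normalized coding reads in the controls and 13.2 and 14.4 in the knockdown libraries, and fell by 1.99 (limma adjusted p = 0.000961). Rptor, the scaffold of mTORC1, fell by 1.85 (adjusted p = 0.00744; -2.64 without knockdown replicate 1 and -1.06 without knockdown replicate 2), and Akt2 fell by 1.80 (adjusted p = 0.00837). Sesn2, a leucine sensor that restrains mTORC1, rose by 1.54 (adjusted p = 0.0117). With control replicates 1 and 2 left out in turn, the log2 change was -2.04 and -1.94 for Rps6ka1 and -2.23 and -1.47 for Rptor. In the same fits it was -1.70 and -1.90 for Akt2 and 1.71 and 1.38 for Sesn2. Mtor itself had 82.4 and 104 against 129 and 120 normalized coding reads (log2 0.42, adjusted p = 0.294).

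Of 9 tested mRNAs known as sensitive to the level of eIF4E, 2 rose, 1 fell and 6 did not pass, with a median of 0.41 beside -0.16 for all genes. Ccnd1 (3.66) and Myc (2.77) rose from 2.59 to 6.05 normalized coding reads in the controls to 36.7 to 79.3 in the knockdown libraries. Without control replicate 2 they stood at 3.38 and 2.81. Hif1a, the hypoxia factor, fell by 0.99 (limma adjusted p = 0.0154) from 224 and 216 to 109 and 112. That call was lost in 4 of 16 alternatives, among them the fits without 1 of the controls, where far fewer genes passed in all. Mcl1, a survival protein, had 44.4 and 32.8 against 126 and 49.5 (log2 1.03, adjusted p = 0.0601), with its lowest knockdown value just above the controls.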
